A study of Homo sapiens with 4 samples.

Results

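The mitochondrial ribosomal protein genes were taken as the rows of the deposited count table whose symbol begins with MRPL or MRPS and a digit and that held at least 10 counts in at least 2 of the 4 libraries. Of 79 rows with such a symbol, 77 met the count minimum, out of 16839 rows in the whole table. The 77 comprised 48 rows of the large subunit (MRPL) and 29 of the small subunit (MRPS); 75 were genes and 2, MRPL45P2 and MRPS31P5, were pseudogenes. All 77 held at least 10 counts in each of the 4 libraries, and all 77 were among the 14546 genes that passed the filter on low counts. The member closest to the minimum was MRPL38, with 33 and 30 counts in the shSETD8 libraries and 14 and 23 in the shNull libraries. Just outside it was MRPS24, with 1 and 5 counts in the shSETD8 libraries and 3 and 1 in the shNull libraries. Of its exons, 23.2% overlap those of URGCP-MRPS24 on the same strand, so its counts may be shared. Also outside was the antisense RNA MRPL23-AS1, with 3 and 1 counts in shSETD8 and 4 and 1 in shNull libraries.

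The libraries were made from messenger RNA of D458, a human medulloblastoma line of long standing in which MYC is amplified. The shSETD8 cells carried a lentiviral short hairpin against SETD8, the enzyme that adds a single methyl group to lysine 20 of histone H4, and their label gives a knockdown of 80%. The shNull cells carried a non-targeting hairpin and are labelled wild type for SETD8. Both groups were transduced and kept in puromycin at 1 µg/mL for 14 days, and each was sequenced as 2 libraries, from separate clones. Several SETD8 hairpins were used in the study; the labels do not say which of them a clone carried. P-values therefore measure the spread between these clones, and the hairpin, the clone and the knockdown cannot be told apart.

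The mitochondrial ribosome is built in the mitochondrial matrix from RNAs encoded in mitochondrial DNA and from proteins that are all encoded in the nucleus, made in the cytosol and imported. It translates the few messenger RNAs of the mitochondrial genome, whose products are core subunits of the respiratory chain and ATP synthase. Its large subunit forms peptide bonds and its small subunit decodes the messenger RNA; each holds proteins with bacterial counterparts and proteins found only in mitochondria. Inherited defects in several of these genes cause combined oxidative phosphorylation deficiency.

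Total counts were 52627366 and 49064974 in the shSETD8 libraries and 44527591 and 40908334 in the shNull libraries. SETD8 itself was at 14.0 and 26.4 CPM (counts scaled to library size, with TMM factors) in the shSETD8 libraries and at 38.9 and 41.6 CPM in the shNull libraries, so that the shSETD8 libraries held 34.7% and 65.5% of the shNull mean. The medulloblastoma markers MYC, OTX2 and NEUROD1 were high in every library and CRX was present, whereas LHX2 was under 1 CPM in every library. Of 14 markers of epithelial, fibroblast, astrocyte, endothelial, leukocyte and muscle cells, 13 were measured. Of these, 6 were under 1 CPM in every library, and the sum of the 13 was 57.9 and 37.6 CPM in the shSETD8 libraries and 18.6 and 28.5 CPM in the shNull libraries. DES, a muscle gene, made up 35.2 and 6.74 CPM of the sum in the shSETD8 libraries and 7.61 and 13.6 CPM in the shNull libraries. Both keratins on the list had higher values in each shSETD8 library, with KRT8 at 1.28 and 4.51 CPM in shSETD8 and 0.068 and 0 CPM in shNull libraries, and KRT18 at 2.52 and 6.31 CPM in shSETD8 and 0.159 and 0.313 CPM in shNull libraries. EPCAM, the other epithelial marker, was at 0.076 and 0 CPM in shSETD8 and 0.023 and 0.096 CPM in shNull libraries. Of the fibroblast markers, PDGFRB was at 9.31 and 11.1 CPM in shSETD8 and 5.73 and 8.18 CPM in shNull libraries. COL1A1 was at 3.81 and 4.81 CPM in shSETD8 and 1.88 and 1.97 CPM in shNull libraries. COL1A2 was at 0.095 and 0.102 CPM in shSETD8 and 0.294 and 0.096 CPM in shNull libraries. The part of these markers in the results below was not tested. In bulk RNA, fewer cells of a type and less RNA per cell cannot be told apart.

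Members were spread over 21 chromosomes, with 8 each on chromosomes 1 and 17. To show what the family shares in sequence, the RefSeq promoter windows (GRCh38.p14, 250 bases before to 50 after the transcription start) were searched on both strands for 4 motifs of factors tied to mitochondrial genes or MYC. The table held a window for 67 of the 77 members. The motifs and the sequences shown were chosen after the values had been seen, and the groups of promoters were not tested against each other. The YY1 motif, AAN joined directly to ATGGCGG with N as any base, was found in 17 windows (25.4%), against 4.57% of the 11330 windows of genes tested. The ETS letters CCGGAAG were in 27 windows (40.3%), against 18.6%. The NRF1 motif, GCGCA then any base and then GCGC without a gap, was in 8 (11.9%), against 11.5%, and the E-box CACGTG in 7 (10.4%), against 10.1%. Matches of different motifs that overlapped were each counted. At least 1 of the 4 was present in 46 members (68.7%), against 37.3% of the windows of genes tested.

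Most YY1 matches lay just after the transcription start. Those on the gene's own strand in members picked by the naming rule (see processing) are shown for their place. Of the 17 matches, 14 began after the transcription start, at a median of base 15. In 15 the letters read along the gene's own strand, and in 12 of these the ATG inside the motif was an annotated start codon in GENCODE 29. Of the 7 shown, MRPL42 is the one where it was not. MRPL37, outside the naming rule and not shown, is another. The letters of the motif and of a start codon followed by an alanine codon thus coincide, and which of them the match reflects was not tested. The stretches below are MRPL38 at chr17:75904861-75904886 (minus strand), MRPL42 at chr12:93467514-93467539 (plus strand), MRPL50 at chr9:101398578-101398603 (minus strand), MRPS14 at chr1:175023394-175023419 (minus strand), MRPS18A at chr6:43687765-43687790 (minus strand), MRPS18B at chr6:30617855-30617880 (plus strand) and MRPS30 at chr5:44808952-44808977 (plus strand), with the motif in capitals.
MRPL38: ccggagggAAGATGGCGGcgccctgg
MRPL42: attgaaacAAGATGGCGGgttcgtgg
MRPL50: tctcatcgAAGATGGCGGcgcgatct
MRPS14: tagcggacAACATGGCGGccttcatg
MRPS18A: ggtttttgAAGATGGCGGccctcaag
MRPS18B: cgtacgtcAAGATGGCGGcgtctgta
MRPS30: cgcgggcaAAGATGGCGGcggccagg

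The NRF1 letters occurred in promoters of members on both sides of 0. MRPS33, the small subunit member with the highest log2 fold change, and MRPL57, among the 4 lowest of the large subunit, both hold them within the 250 bases before the start. They begin at base -155 in MRPS33, chr7:141014953-141015202 (minus strand), and at base -74 in MRPL57, chr13:21176408-21176657 (plus strand). The match to NRF1 is in capitals.
MRPS33: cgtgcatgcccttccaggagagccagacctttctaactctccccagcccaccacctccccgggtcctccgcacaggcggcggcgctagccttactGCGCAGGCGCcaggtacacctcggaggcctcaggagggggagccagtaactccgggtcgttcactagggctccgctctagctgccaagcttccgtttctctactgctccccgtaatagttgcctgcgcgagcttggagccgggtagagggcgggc
MRPL57: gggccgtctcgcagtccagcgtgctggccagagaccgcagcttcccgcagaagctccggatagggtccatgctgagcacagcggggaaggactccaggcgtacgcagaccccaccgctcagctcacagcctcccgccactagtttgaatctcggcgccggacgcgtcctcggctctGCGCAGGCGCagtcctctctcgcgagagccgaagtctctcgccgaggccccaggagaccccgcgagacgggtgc

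The median log2 fold change, shSETD8 over shNull, was 0.03 in members with the YY1 letters and 0.10 in members without them. It was -0.01 with and 0.10 without the NRF1 letters, 0.07 with and 0.10 without the ETS letters, and 0.01 with and 0.10 without the E-box. The order was the same in each subunit for the ETS letters and the E-box, but not for YY1 and NRF1. With the YY1 letters the median was 0.12 in large subunit members, against 0.10 without, and 0.0001 in small subunit members, against 0.10. With the NRF1 letters it was -0.09 in large subunit members, against 0.12 without, and 0.14 in the 2 small subunit members that hold them, against 0.09. Over the windows of all genes tested the medians with and without were 0.021 and 0.009 for YY1 and 0.004 and 0.011 for NRF1. They were 0.029 and 0.004 for ETS and 0.033 and 0.007 for the E-box. These medians are descriptions of small groups of genes that share libraries. Of the factors themselves, YY1 was at 92.0 and 88.2 CPM in shSETD8 and 85.3 and 87.3 CPM in shNull libraries, and NRF1 at 26.6 and 25.05 CPM in shSETD8 and 25.9 and 26.7 CPM in shNull libraries.

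Levels within the family spanned a wide range. Per kilobase of coding sequence, and averaged over the 4 libraries, the median was 102 CPM per kb over 47 large subunit genes and 106 over 28 small subunit genes. In the large subunit MRPL51, a mitochondria-specific protein, stood highest at 339, followed by MRPL33 at 278 and MRPL3, which lies close to the peptidyl transferase centre, at 236. MRPS21 led the small subunit at 351 CPM per kb, followed by MRPS16 at 271 and MRPS23 at 238. The lowest were MRPL38 at 0.464 and MRPL39 at 24.3 in the large subunit, and MRPS28 at 7.72 and MRPS18C at 18.3 in the small subunit. On the same strand, 37.5% of the exons of MRPL38 and 35.8% of those of MRPS28 overlap another annotated gene. For MRPS18C it is 40.2% on the opposite strand, for MRPL39 none, and for MRPL33, among the highest, 21.1% on the same strand. Whether counts were lost to overlap was not tested. The order depends on the length used. With the length of the whole transcript in its place the highest were MRPL3, MRPL37 and MRPL51 in the large subunit and MRPS27, MRPS34 and MRPS7 in the small subunit, and the medians changed order, to 43.9 CPM per kb in the large and 40.9 in the small subunit.

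**Figure D1:**
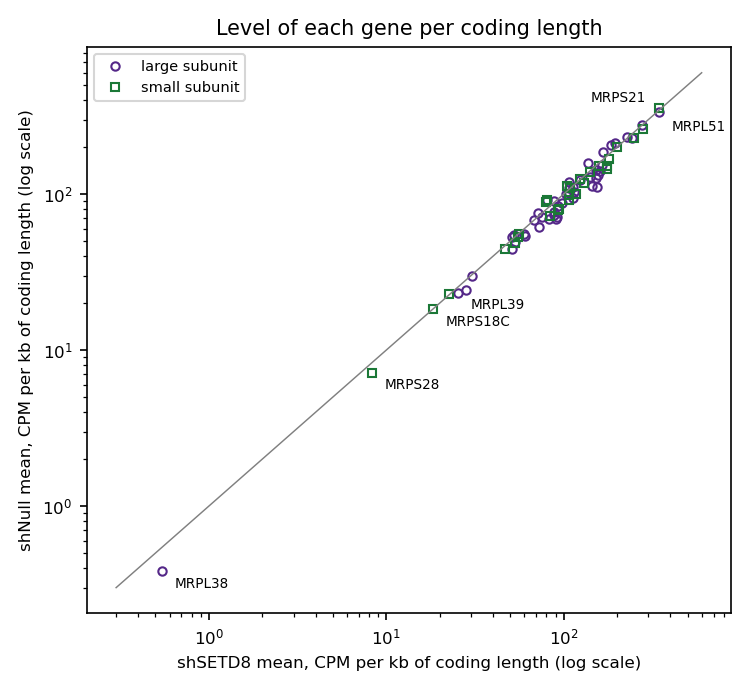
Mean level of each of 75 genes in the shSETD8 libraries (x axis) and in the shNull libraries (y axis), in CPM per kb of coding length on log scales, with the line of equal levels. The genes lie along the line from MRPL38 at the low end to MRPS21 and MRPL51 at the high end.

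As a whole, the family took a slightly larger share of the RNA in both shSETD8 libraries. It made up 0.525% and 0.524% of all counts there and 0.497% and 0.499% in the shNull libraries. The large subunit genes summed to 3143 and 3160 CPM in shSETD8 libraries and to 2985 and 2938 CPM in shNull libraries, with means of 3152 ± 11.8 and 2962 ± 33.1 (SD, n = 2 each), a difference of 6.41%. For the small subunit the sums were 2126 and 2106 CPM in shSETD8 libraries and 2030 and 1972 CPM in shNull libraries, with means of 2116 ± 14.3 and 2001 ± 41.3 (SD, n = 2 each), a difference of 5.73%. Neither subunit's sums overlapped between the groups. The ratio of large to small did overlap, at 1.48 and 1.501 in shSETD8 and 1.47 and 1.49 in shNull libraries. With 2 libraries in each group no test was made on these sums.

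**Figure D2:**
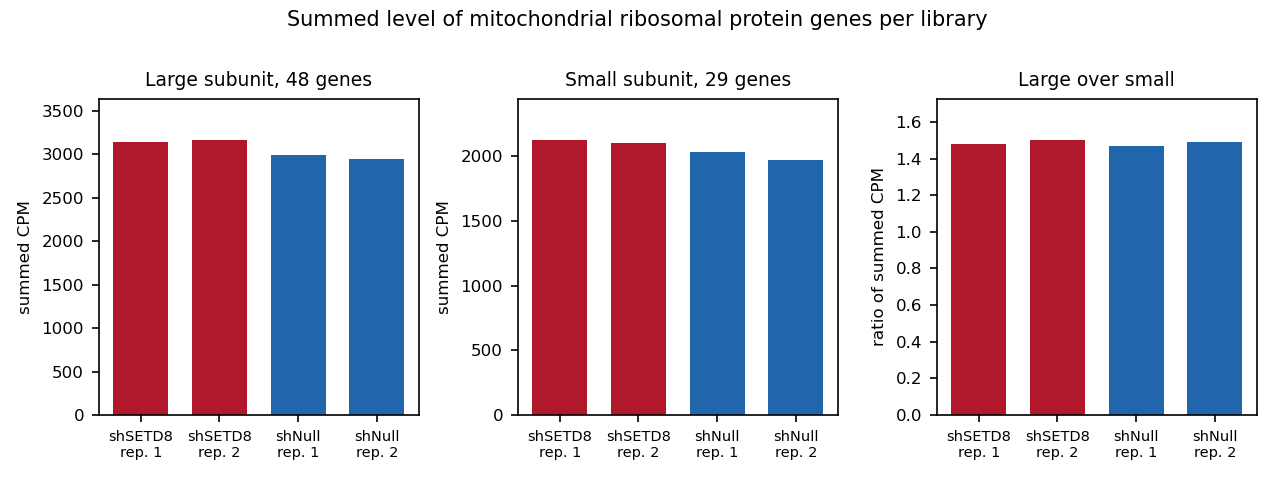
Summed CPM of the 48 large subunit and 29 small subunit genes, and the ratio of the sums, in each library (bars, from 0). The sums of both shSETD8 libraries are above those of both shNull libraries for each subunit, while the ratio stays between 1.47 and 1.501.

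No single member passed the test. edgeR's quasi-likelihood test with Benjamini-Hochberg adjustment over all genes called 0 of the 77 members at an adjusted p under 0.05, with a lowest member value of 0.404, against a background of 0.0% of the 14546 genes tested. DESeq2 also called 0 members, where it called 1.94% of all genes. SETD8 itself, the target of the hairpin, was called by DESeq2 but not by the edgeR quasi-likelihood test, as given above. The likelihood ratio test of edgeR called 0 members (1.7% of all genes) and limma-voom 0 (0.0%). At an unadjusted edgeR p under 0.05 there were 7 members, all with higher values in shSETD8: MRPL10, MRPL11, MRPL12, MRPL24, MRPL43, MRPL49 and MRPS5. That is 7 of 77, where the background was 10.8% in either direction, 5.65% higher and 5.16% lower.

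Most members nevertheless had a log2 fold change above 0. It was above 0 in 54 of 77 members (70.1%), in 34 of 48 of the large and 20 of 29 of the small subunit, against 51.2% of all genes tested. The median was 0.09, against 0.01 for all genes tested and 0.02 for genes with a mean of at least 10 CPM. In 36 members (46.8%) both shSETD8 libraries were above both shNull libraries, against a background of 22.9% of all genes tested and 25.4% of those with a mean of at least 10 CPM. The reverse held for 7 members (9.09%), against 22.4% and 21.5%, and 34 members overlapped between the groups. With libraries scaled by total counts the numbers were 34 higher and 8 lower. Genes of one machine share the same libraries, so these counts describe the 4 libraries and are no test of the family.

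The differences were small. The log2 fold change was within 0.1 of 0 in 32 members, within 0.2 in 54 and within 0.3 in 71; it was above 0.3 in 5 and below -0.3 in 1, with a full range of -0.35 to 0.52. In 37 members the gap between the shSETD8 libraries was wider than the fold change itself. Against the shNull mean, both shSETD8 libraries were higher in 43 members, both lower in 12 and on opposite sides in 22. For these counts the share over all genes tested was not computed. The median gap between libraries of a group was 0.12 on the log2 scale within shSETD8 and 0.08 within shNull, against 0.24 within shSETD8 and 0.12 within shNull over all genes tested.

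**Figure D3:**
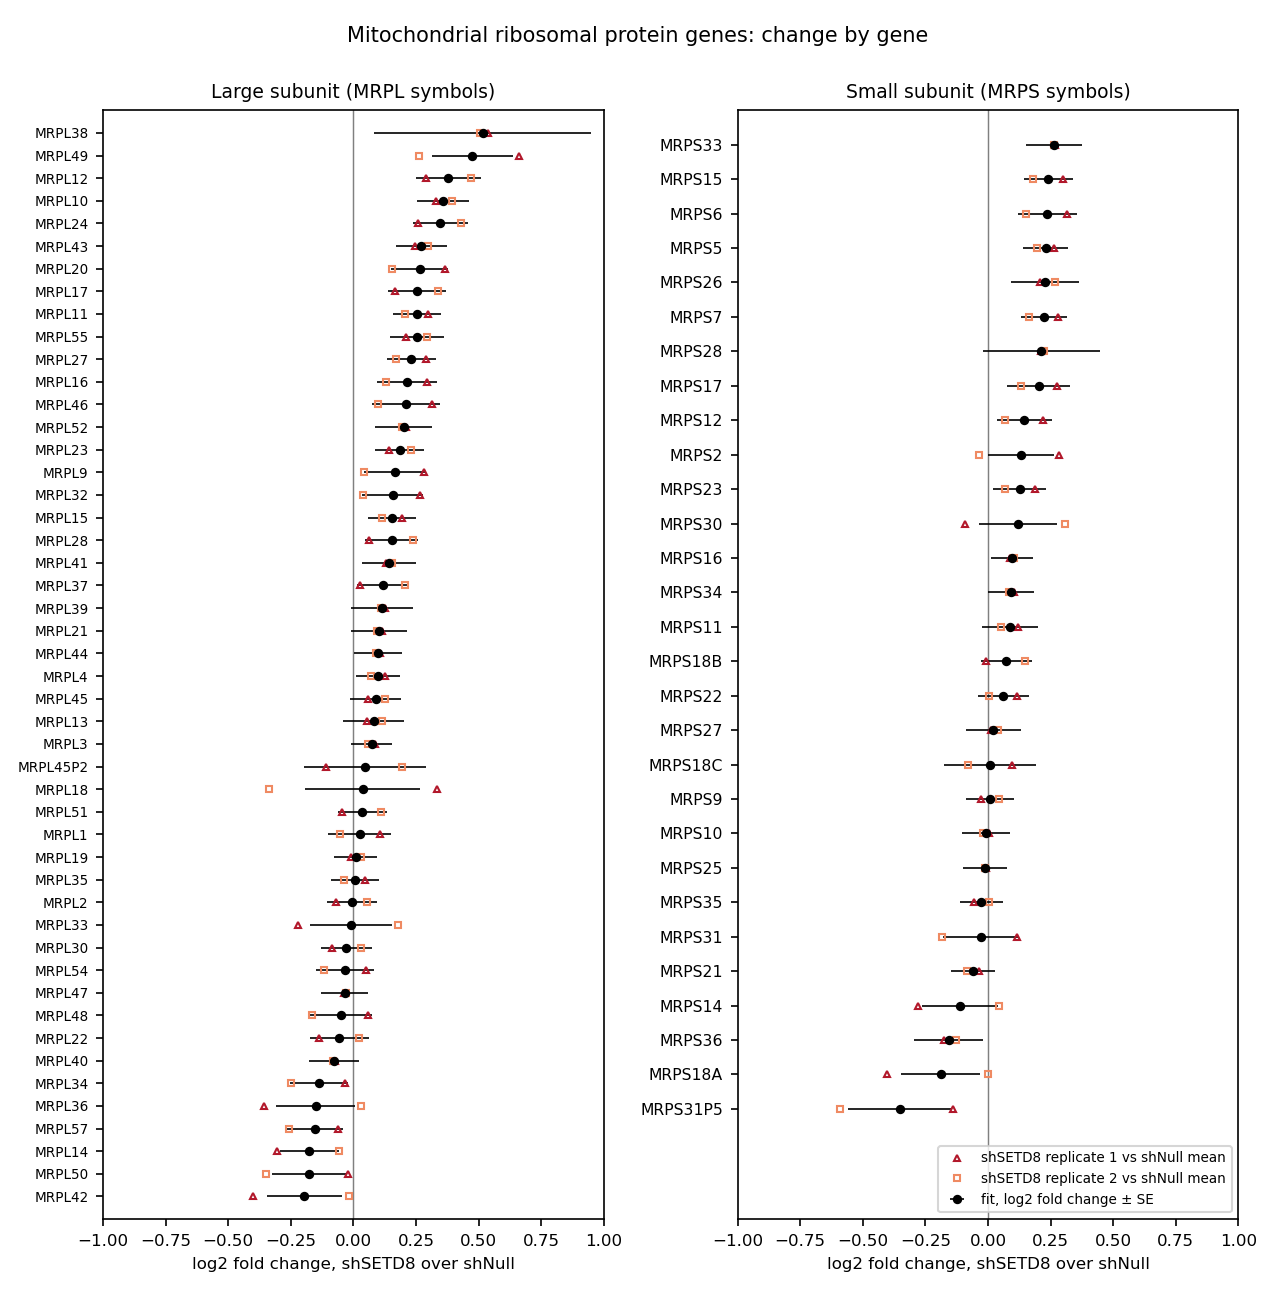
Log2 fold change, shSETD8 over shNull, of each member of the large (left) and small subunit (right), with its SE (black), and the log2 difference of each shSETD8 library from the shNull mean (open marks). Values run from 0.52 in MRPL38 to -0.35 in MRPS31P5, and 54 of the 77 points lie above 0.

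The subunits did not separate. The median log2 fold change was 0.10 in the large subunit, with quartiles of -0.01 and 0.21, and 0.09 in the small subunit, with quartiles of -0.01 and 0.20. Large minus small was 0.0104 in the fit, 0.0025 for shSETD8 replicate 1 and 0.0505 for replicate 2. Both shSETD8 libraries were above both shNull libraries in 24 of 48 large and 12 of 29 small subunit members, against 22.9% of all genes tested. The reverse held for 4 large and 3 small subunit members, against 22.4%. Symbols do not always follow place: MRPS18A and MRPS30 sit in the large subunit of the assembled ribosome, and MRPS36 has been assigned to the alpha-ketoglutarate dehydrogenase complex. With these moved or left out, the ratio of large to small sums was 1.62 and 1.69 in shSETD8 and 1.65 and 1.67 in shNull libraries.

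The stalk of the large subunit recruits translation factors. MRPL12 (chromosome 17), the stalk protein that also binds the mitochondrial RNA polymerase, was at 50.4 and 57.2 CPM in shSETD8 and 38.3 and 44.5 CPM in shNull libraries. MRPL10 (chromosome 17), which anchors it, was at 111 and 116 CPM in shSETD8 and 93.9 and 82.8 CPM in shNull libraries. MRPL11 (chromosome 11), at the base of the stalk, was at 66.9 and 62.8 CPM in shSETD8 and 54.0 and 54.8 CPM in shNull libraries. In all 3 genes both shSETD8 libraries were above both shNull libraries, as in 22.9% of all genes tested. MRPL12 and MRPL10 are also among the 4 large subunit members named for their high fold changes in these same libraries. For them this follows largely from the choice, and the stalk genes were picked with earlier results of these data known. The log2 fold changes were 0.38 ± 0.13, 0.36 ± 0.10 and 0.25 ± 0.10 (SE), and the edgeR adjusted p-values were 0.440, 0.404 and 0.458. MRPL54, listed with the stalk as well, was at -0.03, so that the median of the 4 measured stalk genes was 0.31. Of the exons of MRPL12, 68.2% overlap those of a second annotated gene on the same strand, AC139530.2, so its counts may be shared.

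Genes around the polypeptide exit site were mixed. MRPL24 (chromosome 1), which lies beside the tunnel exit, was at 55.6 and 62.7 CPM in shSETD8 and 47.1 and 45.9 CPM in shNull libraries, a log2 fold change of 0.35 ± 0.11 (SE; edgeR adjusted p = 0.424). MRPL45 (chromosome 17), which ties the ribosome to the inner membrane, was at 96.5 and 101 CPM in shSETD8 and 98.1 and 87.4 CPM in shNull libraries. The groups were apart for MRPL24 and overlapped for MRPL45. Of the 6 exit site genes, 4 were above 0, with a median of 0.14.

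MRPL49 (chromosome 11), a mitochondria-specific protein, had the highest log2 fold change of the members above 1 CPM, 0.48 ± 0.16 (SE; edgeR adjusted p = 0.440). It was at 87.0 and 65.9 CPM in shSETD8 and 51.8 and 58.2 CPM in shNull libraries. Both shSETD8 libraries were higher, but they differed from each other by more than the shNull libraries did. MRPL38 had a larger value, 0.52 ± 0.43, at 0.629 and 0.614 CPM in shSETD8 and 0.317 and 0.553 CPM in shNull libraries, and rests on few counts. MRPL43 stood at 0.27 ± 0.10, with 41.2 and 42.8 CPM in shSETD8 and 34.9 and 34.7 CPM in shNull libraries.

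At the low end of the large subunit, MRPL42 (chromosome 12) was at 55.4 and 72.3 CPM in shSETD8 and 74.2 and 72.0 CPM in shNull libraries, a log2 fold change of -0.20 ± 0.15 (SE). MRPL14 (chromosome 6), which faces the small subunit, was at 73.2 and 86.8 CPM in shSETD8 and 87.9 and 92.9 CPM in shNull libraries, a log2 fold change of -0.18. The groups overlapped for MRPL42, where shSETD8 replicate 1 alone was low, and were apart for MRPL14. MRPL50 was at -0.18 and MRPL57 at -0.15, and the edgeR adjusted p of these 4 genes ran from 0.605 to 0.678.

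In the small subunit the highest values were close to one another. MRPS33 (chromosome 7), a mitochondria-specific protein of the head, was at 55.7 and 55.6 CPM in shSETD8 and 49.5 and 43.2 CPM in shNull libraries, a log2 fold change of 0.26 ± 0.11 (SE). MRPS5 (chromosome 2), near the entry of the messenger RNA channel, was at 123 and 118 CPM in shSETD8 and 99.98 and 105 CPM in shNull libraries, a log2 fold change of 0.23 ± 0.09. MRPS15 and MRPS6 were both at 0.24, with SEs of 0.10 and 0.12. In each of these 4 genes both shSETD8 libraries were above both shNull libraries, as in 22.9% of all genes tested. The 4 were named for their high fold changes in these same libraries, so this follows largely from the choice. The edgeR adjusted p-values ran from 0.458 to 0.505. MRPS12 (chromosome 19), of the decoding centre, was at 56.5 and 50.8 CPM in shSETD8 and 47.3 and 49.8 CPM in shNull libraries. The 7 measured genes of the head had a median of -0.01, with 3 above 0.

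Of the lowest small subunit members, the pseudogene MRPS31P5 (chromosome 13) was at 14.0 and 10.2 CPM in shSETD8 and 16.6 and 14.2 CPM in shNull libraries, a log2 fold change of -0.35 ± 0.21 (SE; edgeR adjusted p = 0.563). Of its exons, 66.3% overlap those of 3 other annotated genes on the same strand, and reads may also be shared with MRPS31, which was at -0.03. MRPS36 was at -0.16 and MRPS14, of the head, at -0.11. The other pseudogene, MRPL45P2, was at 0.05 ± 0.24.

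The 3 MRPS18 paralogues, relatives of one bacterial protein that occupy different places, had different values. MRPS18A was at 40.9 and 54.1 CPM in shSETD8 and 54.1 and 54.2 CPM in shNull libraries, a log2 fold change of -0.19 ± 0.16 (SE). MRPS18B was at 116 and 129.5 CPM in shSETD8 and 121 and 112 CPM in shNull libraries, and MRPS18C at 8.30 and 7.33 CPM in shSETD8 and 7.95 and 7.58 CPM in shNull libraries. For MRPS18A shSETD8 replicate 1 was low and replicate 2 was level with the shNull libraries; the groups overlapped for MRPS18B and MRPS18C.

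The members on which the shSETD8 clones differed most were MRPL18, MRPS31P5, MRPS18A and MRPS30. MRPL18, which contacts the RNA of the central protuberance, was at 68.3 and 42.8 CPM in shSETD8 and 55.6 and 52.7 CPM in shNull libraries, one clone above and the other below both shNull libraries. MRPS30 was at 60.0 and 79.2 CPM in shSETD8 and 66.0 and 62.1 CPM in shNull libraries, with the clones on opposite sides. The log2 fold changes were 0.04 for MRPL18 and 0.12 for MRPS30.

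Each library was left out in turn to see how the calls and fold changes moved. Without shSETD8 replicate 1, edgeR called 4 members, MRPL10, MRPL12 and MRPL24 as higher and MRPS31P5 as lower in shSETD8, against 9.55% of all genes. Without shSETD8 replicate 2 it called 5, MRPL18, MRPL20 and MRPL49 as higher and MRPL42 and MRPS18A as lower, against 17.2% of all genes. A call in only 1 of these fits does not mean that the gene rests on 1 clone. Without shSETD8 replicate 1 and 2, the log2 fold change was 0.39 and 0.32 for MRPL10 and 0.43 and 0.26 for MRPL24. For MRPL18 it was -0.34 and 0.33. In each of these fits 1 shSETD8 library stands alone and is assumed to vary like the shNull libraries. Without shNull replicate 1, and without shNull replicate 2, edgeR called 0 members (0.0% of all genes in each fit). DESeq2 called 0 members without shSETD8 replicate 1 (5.3% of all genes), 2 without shSETD8 replicate 2 (MRPL49 and MRPL42; 11.7%), 0 without shNull replicate 1 (0.119%) and 0 without shNull replicate 2 (0.395%). The median over the members was 0.08 and 0.10 without shSETD8 replicate 1 and 2, and 0.10 and 0.04 without shNull replicate 1 and 2.

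Grouped by origin or by disease, the members gave medians close to that of the family. Large subunit proteins with a bacterial counterpart had a median log2 fold change of 0.10, with 22 of 30 above 0, and mitochondria-specific ones 0.11, with 11 of 16. In the small subunit, taken by symbol, the medians were 0.10, with 13 of 17 above 0, and 0.06, with 7 of 11. The former list holds MRPS18A and the latter MRPS30 and MRPS36, whose places differ from their symbols as given above. The 12 genes listed for combined oxidative phosphorylation deficiency had a median of 0.10, with 10 above 0. None of the genes in these lists passed the edgeR test, which called 0.0% of all genes tested.

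Lists of other genes of mitochondrial translation had medians of 0.02 to 0.16. In every list edgeR and DESeq2 each called 0 genes, where they called 0.0% and 1.94% of all genes. The 6 ribosomal proteins under other symbols were all above 0, with a median of 0.08; AURKAIP1 was at 0.23 and ICT1, a peptidyl-tRNA hydrolase built into the large subunit, at 0.25. Of 29 assembly factors 27 were above 0, with a median of 0.16 and 16 (55.2%) with both shSETD8 libraries above both shNull libraries; over all genes tested 51.2% were above 0 and 22.9% had both shSETD8 libraries higher. Among them MALSU1, which binds the maturing large subunit, was at 33.0 and 34.4 CPM in shSETD8 and 26.8 and 25.9 CPM in shNull libraries, and RPUSD4 at 68.0 and 63.8 CPM in shSETD8 and 51.9 and 54.6 CPM in shNull libraries. Of 14 translation factors 9 were above 0, with a median of 0.09; the initiation factor MTIF2 and the elongation factor GFM1 were both at 0.25.

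The 17 mitochondrial aminoacyl-tRNA synthetases had a median of 0.15, with 13 above 0. LARS2, which charges the leucine tRNA, was at 53.9 and 49.8 CPM in shSETD8 and 38.2 and 41.3 CPM in shNull libraries, a log2 fold change of 0.38 ± 0.11 (SE; edgeR adjusted p = 0.404). Of 14 genes of mitochondrial transcription and RNA processing 12 were above 0, with a median of 0.13; ELAC2, which trims the tRNA 3′ end, was at 0.34 and SLIRP at 0.27. The 10 regulators of mitochondrial biogenesis had a median of 0.02, with 5 above 0. GABPA, an ETS factor, was at -0.21 and ESRRA at 0.23.

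**Figure D4:**
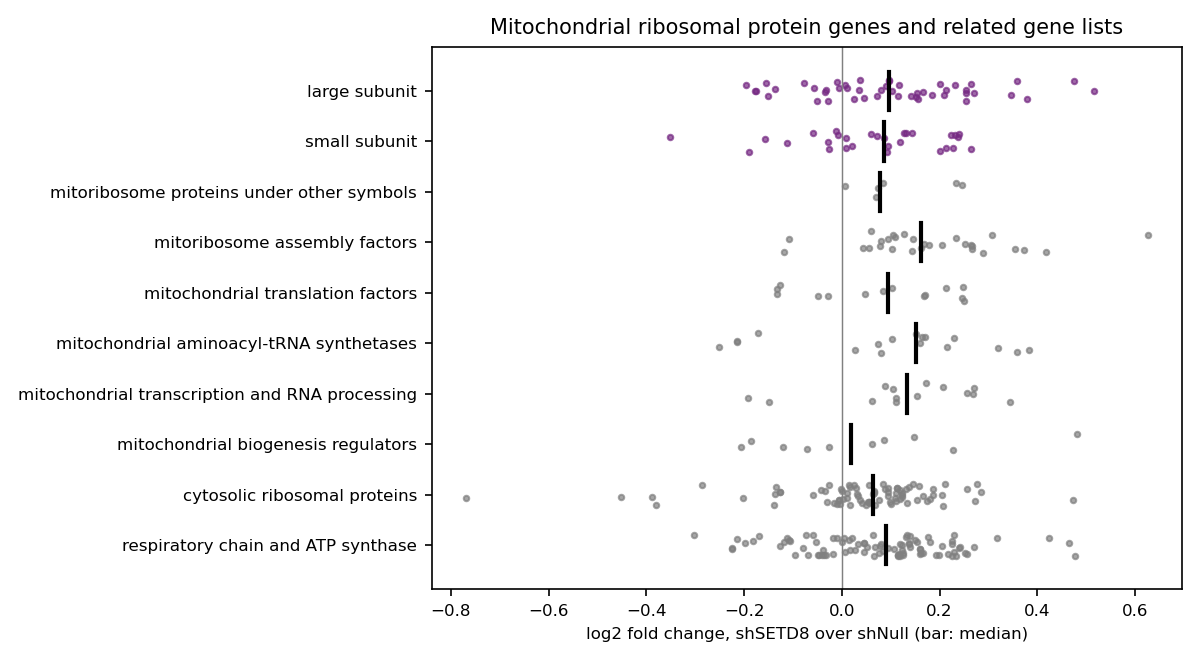
Log2 fold change, shSETD8 over shNull, of each tested gene in the large and small subunit (purple) and in related lists (grey), with the median of each list (black bar); points are spread vertically for display only. Medians run from 0.02 in the biogenesis regulators to 0.16 in the assembly factors, with the subunits at 0.10 and 0.09.

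Set beside the gene families most alike, the values were close in the median. The list for the cytosolic ribosome, 83 genes, follows a symbol pattern that also takes like-named genes such as RPS27L and RPL22L1. Its median was 0.06, with 61 above 0 and 22 (26.5%) with both shSETD8 libraries above both shNull libraries. The 92 genes of the respiratory chain and ATP synthase, a pattern that also takes NDUFAF assembly factors, had a median of 0.09, with 65 above 0 and 31 (33.7%) with both shSETD8 libraries higher. The share among the mitochondrial ribosomal members was 46.8%; the difference between the families was not tested. The respiratory chain and ATP synthase list summed to 12054 and 13221 CPM in shSETD8 and 11991 and 11347 CPM in shNull libraries, without overlap. The cytosolic ribosome list summed to 97259 and 102790 CPM in shSETD8 and 102754 and 89883 CPM in shNull libraries, and overlapped.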

How the data were processed

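RNA was sequenced as single reads of 50 bases from 4 D458 libraries. The authors deposited raw whole-number counts for each gene. STAR 2.4.0.1, Trimmomatic 0.36, DESeq 1.32.0 and FastQC 0.10.1 are named, per the submitters' processing notes, as is build hg19 (GRCh37). No source used here names the counting program or its strand setting, and overlapping genes may share reads: 40 members have some exon overlap with another GENCODE 29 gene, 15 on the same strand. Another 2 count columns match no sample and were not used. The 43 rows without a symbol took 0.241% to 0.276% of counts and stayed in the tests under their identifiers.

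Groups follow the treatment label. The replicate pairs differed by more than sampling noise (chi-square per member 25.9 within shSETD8 and 7.81 within shNull). The fit used edgeR 4.0.16 (R 4.3.3) quasi-likelihood tests on the whole table with TMM, filterByExpr and Benjamini-Hochberg adjustment at 0.05; normalisation factors were 0.992 to 1.02, and SE is the absolute log2 fold change divided by the root of the F statistic. CPM uses TMM library sizes, and differences of single libraries are on log2 CPM (prior count 2). Alternatives were DESeq2 1.42.0, its size factors in edgeR, the likelihood ratio test, limma-voom (limma 3.58.1), no filter, a threshold of 0.01, other member sets and each library left out. DESeq2 with a library left out, the total count scaling of non-overlap and transcript lengths were added after seeing the data. The fit was also run on simulated counts whose changes were larger than those of any member. That run does not show whether changes as small as the members' would be called.

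Members, lists and named genes were chosen with earlier results of these data known. Named were, per subunit, the 4 highest and 4 lowest fold changes with at least 1 CPM and the 3 highest and 2 lowest levels per coding length, the 4 widest gaps between shSETD8 libraries, 10 genes by role, pseudogenes, and up to 2 genes with the lowest p per related list. A gene that this rule names is not reported here. MRPL20, MRPL37, MRPL43, MRPL54, MRPS27, MRPS31, MRPS34 and MRPS7 were named after their values were seen, as were YY1, NRF1, the single markers with values and the summed levels of the 2 compared families. Lengths and start codons are from GENCODE 29. Of 67 RefSeq windows, 62 ran into a GENCODE transcript of their own gene; the windows shown did. Genes encoded in mitochondrial DNA were not analysed here.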

Additional observations from a re-analysis of the deposited data

How the results depend on the processing

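The count of members called stayed at 0 with DESeq2, its size factors in edgeR, no filter, the likelihood ratio test, limma-voom and a threshold of 0.01, and ran from 0 to 5 with each library left out in edgeR and from 0 to 2 in DESeq2; the mitochondrial translation lists ran from 0 to 15 called of 90 genes with a library left out, the 15 (16.7%) without shSETD8 replicate 2, where 17.2% of all genes were called. Large minus small ran from 0.0028 to 0.0495 with a library left out, the higher value without shSETD8 replicate 1. Summed levels moved to 0.078 (large) and 0.069 (small) on the log2 scale with total counts, against 0.090 and 0.080. The log2 ratio of median levels per kb, large over small, turned to 0.10 with transcript length, against -0.06 with coding length. Of 33 named members, 25 kept their sign in every fit, and 99 of 99 values with all 4 libraries kept sign and side of the threshold. The other 8 changed sign with a library left out: MRPL33 from -0.22 to 0.17, MRPL51 from -0.046 to 0.11, MRPS14 from -0.28 to 0.039, MRPS18C from -0.086 to 0.095, MRPS30 from -0.10 to 0.30, MRPL18 from -0.34 to 0.33, MRPS18B from -0.0080 to 0.15 and MRPL45P2 from -0.12 to 0.19. The cause was not tested. No paired analysis was possible because replicates were numbered in accession order, which pairs no libraries. Depth limited few members: 4 of 77 had a mean under 10 CPM. In 49 members the gap between shSETD8 libraries exceeded that between shNull libraries, a count whose share over all genes tested was not computed. The median gap was also wider within shSETD8 over all genes tested, at 0.24 against 0.12 within shNull.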
